A study of Mus musculus with 4 samples.

Results

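Neuropeptide Y and its receptors were followed here as 4 genes, Npy, Npy1r, Npy2r and Npy5r, in the hippocampus of mice given the antidepressant fluoxetine, which blocks serotonin reuptake. Every probeset that the platform annotation assigns to 1 of these symbols alone was taken, which gave 6 of 45101 probesets on the array. A probeset is a group of short probes on the array that together report 1 transcript. The mice were male DBA/2J, an inbred strain, labelled as 8 to 10 weeks old, and drank either plain water (control, 0 mg/kg per day) or water with fluoxetine at 18 mg/kg per day for 21 days. The dose was set from average water intake and body weight, so it is a group average. Each group had 12 mice, whose hippocampal RNA was mixed 6 animals at a time, and each of the 2 mixtures per group went onto its own Affymetrix Mouse Genome 430 2.0 array. There were therefore 4 arrays, and n counts pools of different mice, not single animals.

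Neuropeptide Y is an amidated peptide that is cut from a larger precursor and released from dense-core vesicles. In the hippocampus it is made mainly by GABAergic interneurons, and mossy fibres of granule cells are known to take up its expression after strong activity such as seizures. Its receptors Y1, Y2 and Y5 couple to Gi/o proteins. Y2 is known as a presynaptic receptor that dampens glutamate release, Y1 as a mainly postsynaptic receptor, and Y5 as a further brain receptor whose gene lies beside that of Y1.

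The RefSeq gene table (assembly GRCm38.p6) lists the 4 genes as protein coding, Npy on chromosome 6, Npy2r on chromosome 3, and Npy1r and Npy5r next to each other on chromosome 8, on opposite strands. All 4 had an entry in the RefSeq promoter table. The 250 bases before the start of Npy, the gene that changed, and of Npy5r, a receptor gene with a pair of probesets that gave nearly equal differences, are shown to set their sequence side by side (GRCm38.p6, 5′ to 3′ on the gene's strand). Capitals mark matches to the motifs searched on both strands.
Npy, chr6:49822460-49822709, plus strand: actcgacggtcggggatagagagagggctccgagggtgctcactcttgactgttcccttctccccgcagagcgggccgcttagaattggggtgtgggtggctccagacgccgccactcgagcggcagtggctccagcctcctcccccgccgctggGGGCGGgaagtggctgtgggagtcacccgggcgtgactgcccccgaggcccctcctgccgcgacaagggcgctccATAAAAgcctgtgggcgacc
Npy5r, chr8:66688095-66688344, minus strand: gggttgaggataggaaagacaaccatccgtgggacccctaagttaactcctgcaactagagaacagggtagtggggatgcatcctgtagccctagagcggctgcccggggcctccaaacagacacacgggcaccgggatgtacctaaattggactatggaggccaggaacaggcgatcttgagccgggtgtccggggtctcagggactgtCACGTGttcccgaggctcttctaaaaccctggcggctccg
The Npy window was 69.2% G or C and held 21 CG dinucleotides, against 58.8% and 12 for Npy5r, and a median of 52.4% G or C over 32851 windows of that length in the table. The capitals in Npy are 1 GC box (GGGCGG, in 32.7% of all windows) starting 95 bases before the gene start and 1 ATAAAA, a variant of the TATA box (in 17% of windows), 20 bases before it. ATAAAA was added after the sequence had been seen. Those in Npy5r are 1 E-box (CACGTG, in 6.02% of windows). Neither window held the cyclic AMP response element TGACGTCA (1.55% of windows), its shorter form TGACG (17.8%), the AP-1 motif TGANTCA (6.75%), the EGR motif GCGTGGGCG (0.536%) or the canonical TATAAA (12.4%). Of the windows of the other receptor genes, Npy1r had 1 AP-1 match and Npy2r 1 GC box. The array measures transcript abundance and no binding, so these matches are a description of the sequence.

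Npy was higher in fluoxetine pools, while each tested receptor probeset lay slightly lower without passing the test. Npy, at its only probeset (1419127_at), had an intensity of 1236 and 1436 in control pools 1 and 2, and of 5944 and 6508 in fluoxetine pools 1 and 2. The lower fluoxetine pool stood 4.14-fold above the higher control pool, and pools of one group differed by 1.16-fold (control) and 1.09-fold (fluoxetine). The group means rose from 1332 to 6220, a 4.67-fold difference with a 95% confidence interval of 3.87 to 5.63. On the log2 scale the change was 2.22 ± 0.10 (SE, n = 2 pools in each group), with adjusted p = 0.0172 by limma's moderated test and the Benjamini-Hochberg procedure over all tested probesets. Among the 16938 tested probesets this rise had rank 12 by size and rank 5 by p. Bulk RNA cannot tell more Npy-expressing cells from more Npy RNA per cell.

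A probeset was tested where it reached the submitters' intensity minimum of 100 in at least 2 of the 4 arrays. Of the 6 member probesets 5 met this, covering all 4 genes, and 1 of the 5, that of Npy, passed an adjusted p of 0.05. Over all tested probesets 1.72% passed (291, 175 higher and 116 lower), 1.03% as higher and 0.685% as lower. At least 2-fold between group means, the submitters' own rule, was met by Npy alone of the 5 and by 0.791% of all tested probesets. Groups did not overlap at any of the 5, as at 56.0% of all tested probesets, 21.9% with fluoxetine higher and 34.2% with fluoxetine lower. With 2 against 2 arrays the smallest p of an exact permutation test is 0.333, so the calls rest on limma's moderated test, which borrows the spread of all probesets. Leaving out any 1 array kept the log2 fold change of Npy between 2.11 and 2.33. Such a fit leaves 1 array in a group, and the calls of all probesets were lost, not that of Npy alone. With no intensity minimum, all 45037 probesets that are not Affymetrix controls were tested and 0 passed. Npy had an adjusted p of 0.147 by limma in that fit.

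**Figure D1:**
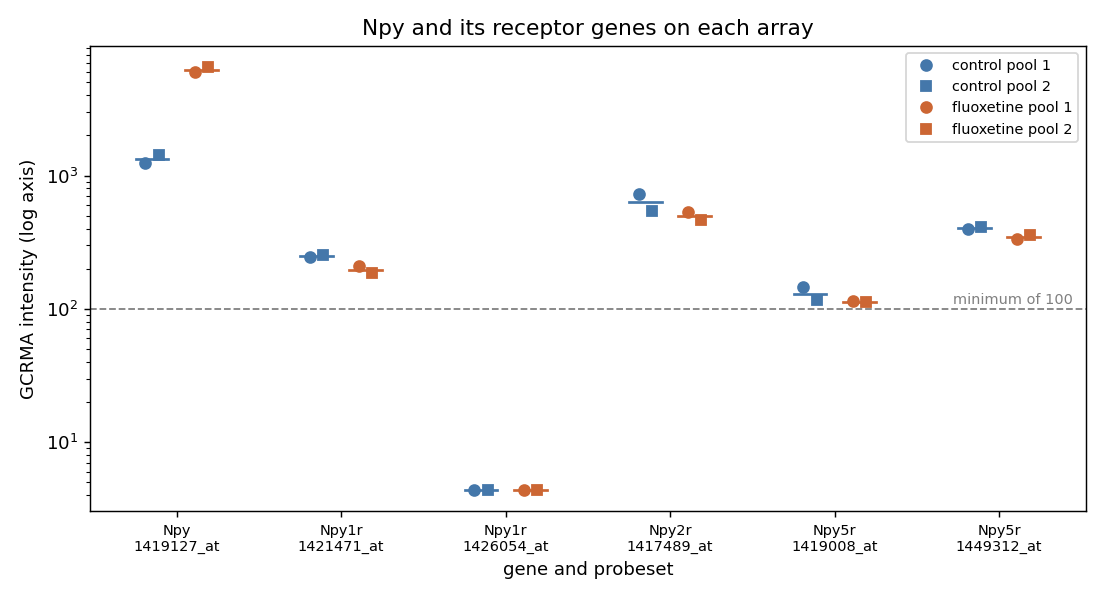
GCRMA intensity (log axis) of the 6 probesets of Npy and its receptor genes on each array, with circles for pool 1, squares for pool 2, blue for control, orange for fluoxetine and bars for the geometric group means. Npy lay at 1236 and 1436 in control and 5944 and 6508 in fluoxetine pools, and Npy1r 1426054_at lay far under the dashed minimum of 100. Probesets differ in how brightly they report, so heights are compared within a probeset only.

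The Y1 receptor gene Npy1r was lower in both fluoxetine pools. Its probeset 1421471_at read 246 and 252 in control pools 1 and 2, and 209 and 186 in fluoxetine pools 1 and 2. The groups did not overlap, and the fluoxetine mean was 197 against 249. This log2 fold change of -0.34 ± 0.08 (95% confidence interval -0.56 to -0.12) had an unadjusted p of 0.0117 and missed the threshold by limma (adjusted p = 0.122). The other Npy1r probeset, 1426054_at, is annotated to another deposited sequence. It read 4.37 to 4.41 on the 4 arrays, with no order of the groups, and was not tested.

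The Y2 receptor gene Npy2r (1417489_at) had its highest reading in control pool 1, at 724, against 546 in control pool 2. The fluoxetine pools read 537 and 466, the first of them close below control pool 2. Means were 629 and 500, and the log2 fold change of -0.33 ± 0.16 (95% confidence interval -0.75 to 0.09, adjusted p = 0.304 by limma) was not separable from the spread between pools. It was -0.13 without control pool 1 and -0.53 without control pool 2.

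The Y5 receptor gene Npy5r has 2 probesets, both annotated to the same RefSeq transcript, and they gave nearly the same difference. Probeset 1449312_at read 395 and 409 in control pools 1 and 2 and 334 and 355 in fluoxetine pools 1 and 2. Both fluoxetine pools were under both controls, with a log2 fold change of -0.22 ± 0.07 (95% confidence interval -0.41 to -0.04, unadjusted p = 0.0275, adjusted p = 0.173 by limma). Probeset 1419008_at, close to the intensity minimum, read 145 and 116 in controls and 114 and 112 in fluoxetine pools. Here control pool 1 stood apart and the other 3 arrays lay together, with a log2 fold change of -0.20 ± 0.12 (95% confidence interval -0.52 to 0.13, adjusted p = 0.406). Its log2 fold change was -0.03 without control pool 1 and -0.36 without control pool 2.

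Across the receptor genes, 0 of 4 tested probesets passed by limma, and 2 of the 4 had an unadjusted p under 0.05, as did 22.5% of all tested probesets. The fluoxetine arrays lay under both controls at all 4, a pattern seen at 34.2% of tested probesets, and 58.7% of tested probesets had a log2 fold change below 0. The share of tested probesets with a still lower log2 fold change was 7.27% for Npy1r, 7.57% for Npy2r, and 16.3% (1449312_at) and 20% (1419008_at) for Npy5r. The confidence intervals of the 4 reached down to -0.75 (Npy2r) and up to 0.13 (Npy5r 1419008_at) on the log2 scale, so that a receptor difference as large as that of Npy, in either direction, lay outside all 4.

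**Figure D2:**
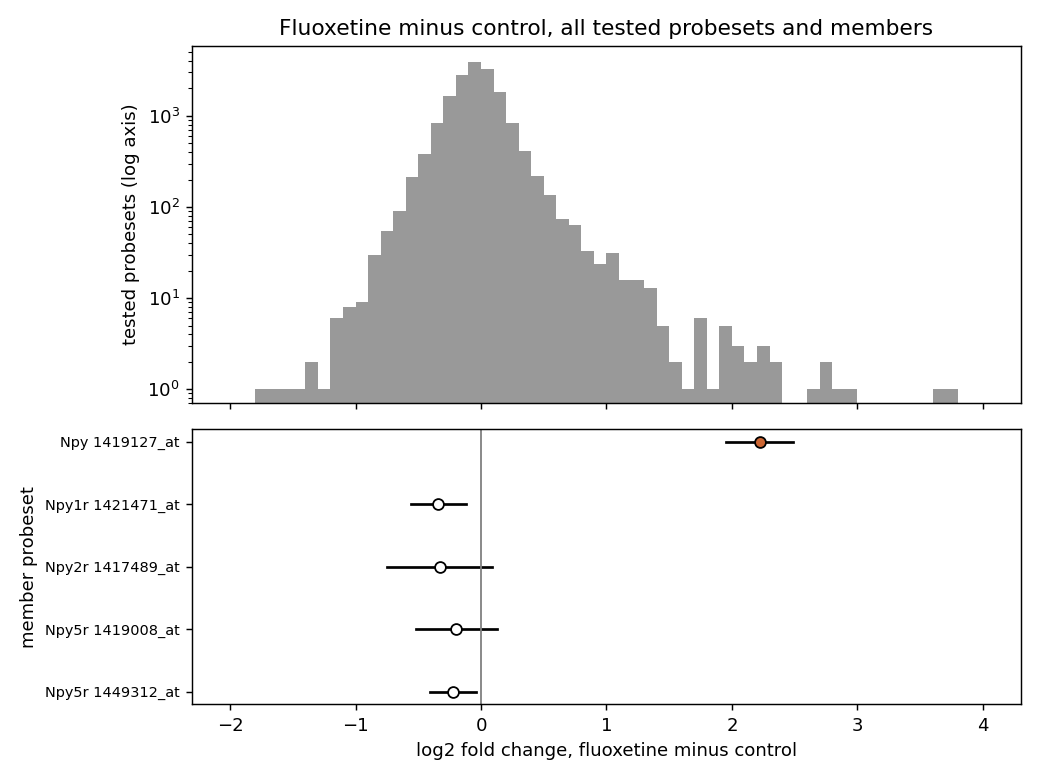
Upper panel, number of tested probesets (log axis) by log2 fold change, fluoxetine minus control, in bins of 0.1. Lower panel, the 5 tested member probesets with their 95% confidence intervals, filled where the adjusted p was under 0.05. Npy at 2.22 lies in the thin right tail, and the 4 receptor probesets lie between -0.34 and -0.20.

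Array-wide signals that moved with the groups were measured beside these differences. The 4 arrays had medians of 22.6 to 23.3, and 16651 to 16905 probesets per array reached 100. Spike-in RNA, added to each hybridisation in fixed amount, was higher in both fluoxetine arrays at all 18 of its probesets, with a median log2 difference of 0.36. Over the tested probesets the median log2 fold change was -0.04. Centring each array on its spike-ins moved that median to -0.41, Npy to 1.85 and the receptor probesets to between -0.71 and -0.57, and gave 211 higher and 10186 lower calls. Relative to the median of all tested probesets, Npy stood at 2.26 under both scalings. This equality is arithmetic, since the centring shifts all probesets of an array by the same amount. Subtracting array medians or quantile normalization left Npy at 2.25 and 2.23, with 283 higher and 147 lower calls for the first and 262 and 126 for the second.

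The 5 genes whose pattern over the 4 arrays was closest to Npy were Bdnf, Blnk, Ecel1, Col3a1 and S100a6. Closeness was the root mean square difference of log2 values over the 4 arrays, after each gene's own mean was subtracted, among 8816 named genes at their brightest tested probeset. The difference from Npy was 0.12 for Bdnf and 0.18 for S100a6, where the median gene differed by 1.13. The control values of Blnk, Ecel1 and Col3a1 were all under 100, so how close these 3 lie to Npy cannot be read exactly. Among the 8481 genes that reached 100 on all 4 arrays, a ranking added after seeing the data, Bdnf and S100a6 were followed by Drd1 (0.26), a dopamine receptor gene, Lgals1 (0.30), which encodes galectin-1, and Vim (0.32), an intermediate filament gene. Bdnf encodes brain-derived neurotrophic factor and read 628 and 593 in control and 2700 and 2741 in fluoxetine pools (log2 fold change 2.16 ± 0.07). S100a6, a calcium-binding protein gene, read 348 and 296 in control and 1592 and 1454 in fluoxetine pools. For the other three, folds are bounds against 100, the group mean of fluoxetine being at least 2.81-fold higher for Blnk, a B cell adapter gene, at least 1.24-fold for Ecel1, a membrane peptidase gene, and at least 2.31-fold for Col3a1, a collagen gene. Bdnf and S100a6 passed limma (adjusted p = 0.00614 and 0.0172), which the choice by likeness to Npy favours. Blnk, Ecel1 and Col3a1 met the intensity minimum only through their fluoxetine arrays, where they were high, so their test results are not read.

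**Figure D3:**
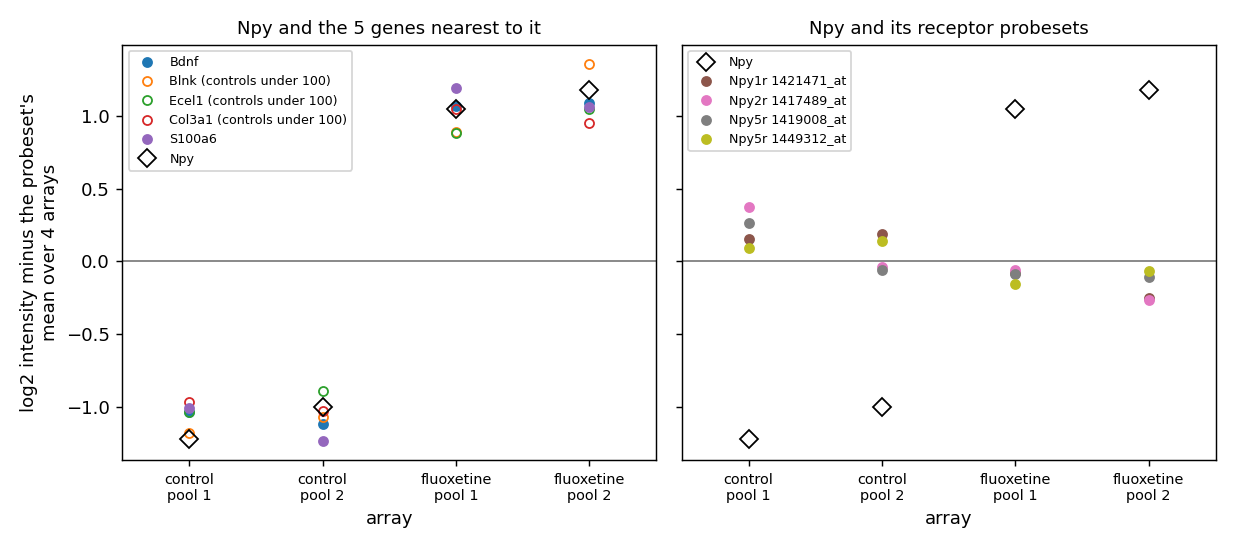
Log2 intensity on each array minus the probeset's mean over the 4 arrays. Left, Npy (open diamonds, from -1.22 to 1.18) and the 5 genes nearest to it, with open circles for the 3 whose controls were under 100 and whose control positions cannot be read exactly. Bdnf lies between -1.12 and 1.09. Right, Npy and the 4 tested receptor probesets, which stay between -0.27 and 0.37.

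Genes that make the peptide and pass on its signal gave no call. Of 4 tested prohormone processing genes, 0 passed by limma, with 2 at an unadjusted p under 0.05 and a median of -0.02 against -0.03 over the 9030 genes tested, of which 1.86% passed and 22.0% had an unadjusted p under 0.05. Pam, the amidating enzyme that finishes peptides such as NPY, read 1065 and 1006 in control and 1231 and 1266 in fluoxetine pools (log2 fold change 0.27 ± 0.07, adjusted p = 0.127). Pcsk1n, a prohormone convertase inhibitor, was at -0.28 ± 0.09, Scg5, the chaperone of convertase PC2, at -0.12, and Cpe, the carboxypeptidase, at 0.08. The convertase gene Pcsk1 was under 100 on all arrays, and Pcsk2 was not analysed here. The other genes of the NPY family and its peptidases could not be tested. Of these 7, Pyy, Ppy, Npy4r, Npy6r, Dpp4 and Xpnpep2 were under 100 on every array, and the peptidase gene Mme read 105 and 94.1 in control and 77.9 and 59.3 in fluoxetine pools.

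Of 26 tested genes of Gi/o proteins and their effectors, 0 passed by limma and 9 had an unadjusted p under 0.05. Over all genes tested these shares were 1.86% and 22.0%. Of the 26, 19 had a log2 fold change below 0 (median -0.08), as did 5099 of all 9030 genes tested (median -0.03). The genes of this list with the largest difference were all lower. Gng4, a G protein gamma subunit, was at -0.62 ± 0.15 (adjusted p = 0.116), Grk3, a receptor kinase that desensitises G protein-coupled receptors, at -0.49 ± 0.08 (adjusted p = 0.0639), Kcnj9, a G protein-gated potassium channel subunit, at -0.48 ± 0.13 (adjusted p = 0.139) and Adcy8, a calcium-stimulated adenylyl cyclase, at -0.47 ± 0.16 (adjusted p = 0.181). Grk3 read 2464 and 2264 in control and 1710 and 1664 in fluoxetine pools, with no overlap. With the trend and robust options of eBayes, 2 genes of this list passed, Grk3 and the adenylyl cyclase gene Adcy1.

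Other neuropeptide precursors differed among themselves. Of 10 tested, 4 rose and 0 fell, with a median of 0.48, where 1.31% of all genes rose and 0.554% fell. Penk, the enkephalin precursor, read 263 and 260 in control and 3649 and 3331 in fluoxetine pools (log2 fold change 3.74 ± 0.08, adjusted p = 0.00217). Gal, the galanin precursor, read 22.5 and 19.4 in controls, under the minimum, and 353 and 201 in fluoxetine pools, at least 2.67-fold higher. Gal was tested only through its fluoxetine arrays, where it was high, so its test result is not read. It is still part of the count of 4 and of the median. With 100 required in all 4 arrays, or with a floor of 100, the list had 3 calls. The granin Scg2 rose by a log2 fold change of 0.98 ± 0.09 and the granin-like Vgf by 0.80 ± 0.08. The somatostatin gene Sst, whose peptide shares many interneurons with NPY, read 2738 and 2878 in control and 2535 and 2628 in fluoxetine pools (-0.12 ± 0.07, adjusted p = 0.372). Cck was at -0.22 and Vip at 0.00, neither passing. The peptide list's 4 calls were lost without any 1 array and with no intensity minimum, as were the calls of all probesets.

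Interneuron markers, the genes of the main hippocampal cells that express Npy, gave 0 calls among 24 tested by limma. Of the 24, 8 had an unadjusted p under 0.05, 12 were higher and 12 lower, with a median of -0.04. Over all genes tested, 1.86% passed and 22.0% had an unadjusted p under 0.05, so 0 calls among 24 is near the overall share. Their summed intensity was 43805 and 46674 in control and 42055 and 42579 in fluoxetine pools, a sum in which the brightest probesets, such as those of Gad1 and Cck, weigh most. Gad1, a GABA-synthesising enzyme gene, was at -0.08 ± 0.07, the other such gene Gad2 at 0.26 ± 0.11, and the vesicular GABA transporter gene Slc32a1 at 0.03 ± 0.06. The neuronal nitric oxide synthase gene Nos1 was at 0.33 and the calretinin gene Calb2 at 0.34. In the other direction, Lamp5 was at -0.39, Satb1 at -0.30 and Kit at -0.26, and none of these genes passed. Crhbp, which marks some somatostatin cells, was the highest at 0.52 ± 0.11 (adjusted p = 0.0899), and Dlx1 the lowest at -0.42 ± 0.11 (adjusted p = 0.135). The markers Chodl, Cort, Dlx5, Erbb4 and Htr3a were under 100 on all arrays.

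Activity response genes were read because Npy is known as an activity-regulated gene. Of 15 tested, 2 rose and 0 fell (median 0.19), where 1.31% of all genes rose and 0.554% fell. The 2 were Egr3 at a log2 fold change of 1.09 ± 0.10 (adjusted p = 0.0352) and Fosl2 at 0.70 ± 0.07 (adjusted p = 0.038), both transcription factor genes. Among the 15, 11 lay above 0 and 4 below, the lowest being Btg2 at -0.53 ± 0.30 and Npas4 at -0.42 ± 0.94. Over all genes tested, 3931 lay above 0 and 5099 below. Groups did not overlap at 7 of the 15, and at 56.0% of all tested probesets. Fos read 268 and 230 in control and 483 and 1039 in fluoxetine pools (1.51 ± 0.37, adjusted p = 0.117) and Arc 289 and 233 against 365 and 599 (0.85 ± 0.26, adjusted p = 0.162). Egr3 read 3046 and 3017 in control and 5914 and 7036 in fluoxetine pools, and Fosl2 559 and 584 against 898 and 959, with no overlap for either. The 2 calls were lost without any 1 array, as were the calls of all probesets.

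**Figure D4:**
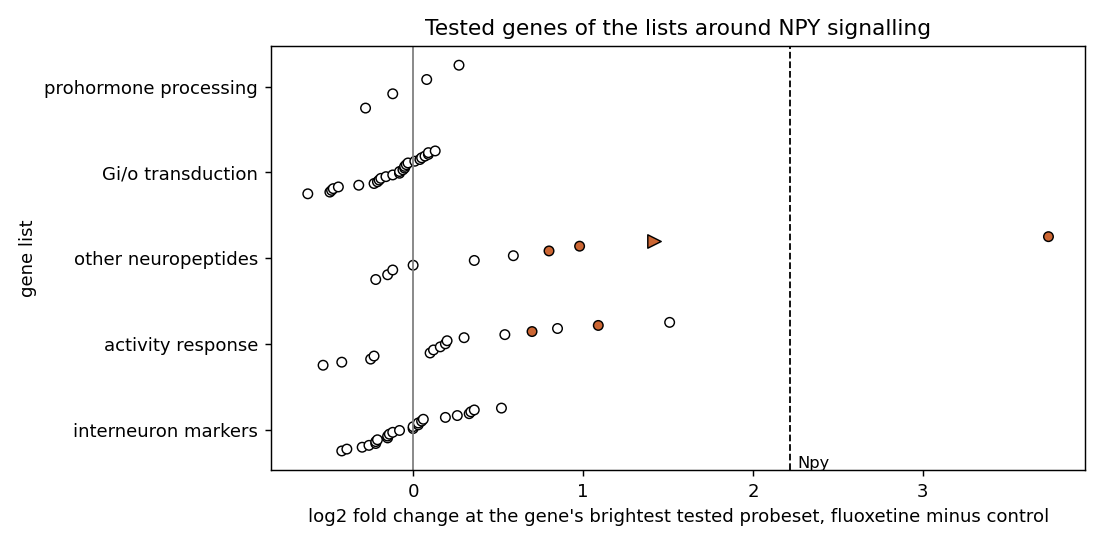
Log2 fold change, fluoxetine minus control, of each tested gene of 5 lists at its brightest tested probeset, filled where the adjusted p was under 0.05. The arrowhead is Gal at its lower bound of 2.67-fold, since its controls were under the minimum. Its fill is not read, since Gal was tested only through its fluoxetine arrays. The dashed line marks Npy at 2.22, Penk lies beyond it at 3.74, and the 26 Gi/o and 24 interneuron genes have 0 filled points.

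Markers of other cells and neighbouring tissue were set beside the rise of Npy. Over all genes tested, 1.31% rose and 0.554% fell. The hypothalamus, another rich source of Npy, was represented by 6 measured peptide genes (Avp, Cartpt, Hcrt, Oxt, Pmch and Pomc). All were under 100 on every array, and they summed to 35.2 to 44.7. Agrp, also on this list, had no probeset annotated to it alone and could not be read, so the list does not cover every hypothalamic peptide neuron. Of 6 tested striatal markers 2 rose, Penk and Drd1, and the summed list read 3788 and 4205 in control and 7555 and 7903 in fluoxetine pools. Without Penk the sums were 3525 and 3945 against 3906 and 4571. Of the 2 tested Drd1 probesets, 1 passed, the brightest. Of the other tested striatal genes, Ppp1r1b was at 0.66 ± 0.10 (adjusted p = 0.059), Tac1 at 0.36, Pde10a at 0.00 and Pde1b at -0.38, and Drd2, Gpr6 and Rgs9 were under 100 on all arrays. Mature dentate granule markers had 1 rise (Rasl10a) and 1 fall (Dsp) among 11 tested, with 8 at an unadjusted p under 0.05 against 22.0% of all tested genes, and sums of 13142 and 11494 in control and 10181 and 10341 in fluoxetine pools. Of the 11, 6 had a log2 fold change above 0 and 5 below. Of the dentate genes that did not pass, C1ql2 was at 1.11 ± 0.17 (adjusted p = 0.0636) and Npnt at 0.72 ± 0.14 (adjusted p = 0.0865) by limma. In the other direction, Calb1 was at -0.45 ± 0.08 (adjusted p = 0.0771) and Dock10 at -0.41 ± 0.10 (adjusted p = 0.11) by limma. Of the 3 tested Calb1 probesets, 1 passed, though not the brightest. CA pyramidal markers had 0 calls among 11, with 3 at an unadjusted p under 0.05 by limma. Microglia markers rose at 5 of 10 (C1qa, C1qb, Cd53, Ctss and Tyrobp), with sums of 7840 and 7559 against 12281 and 11916. Astrocyte markers rose at 3 of 12, Gfap, Vim and Aqp4 (69835 and 72257 against 84309 and 85788). Of the 12, 9 lay above 0 and 3 below, the lowest being Fgfr3 at -0.44 ± 0.10 (adjusted p = 0.11 by limma). Endothelial and mural markers rose at 2 of 8, Rgs5 and Abcc9 (4539 and 4447 against 5759 and 5611). Of these 8, 7 lay above 0 and 1 below, Acta2 at -0.27 ± 0.08 (adjusted p = 0.165 by limma). Rgs5 passed at 1 of its 4 tested probesets, the brightest. Over all genes tested, 3931 lay above 0 and 5099 below. None of these 3 lists had a fall that passed. The calls of the striatal, dentate, microglia, astrocyte and endothelial lists were lost without any 1 array and with no intensity minimum. In these fits the calls of all probesets were lost, so this is not particular to the lists. The dentate list also had 0 calls with 100 required in at least 1 array. The part of these marker lists in the Npy result was not tested. Thalamic (0 of 5) and oligodendrocyte markers (0 of 11) gave no call by limma, with 3 and 0 at an unadjusted p under 0.05. The choroid plexus list, nearly all of it the transthyretin gene Ttr, summed to 38164 and 2142 in control pools 1 and 2 and to 51607 and 4557 in fluoxetine pools 1 and 2, so that pools of one group differed more than the groups did. Without Ttr the sums were 307 and 141 against 506 and 128, and 0 of the list's 2 tested genes passed by limma, with 0 at an unadjusted p under 0.05.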

How the data were processed

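Hippocampal RNA pools were measured on 4 arrays, with group and pool number read from each title. The deposited values are linear intensities, 1 per probeset and array. The authors ran GCRMA in the ArrayAssist software, per the labels, and no version is given in the sources used here. GCRMA corrects background by probe sequence and pulls dim probesets towards a common low value.

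The intensities were kept as deposited and taken to log2. Leaving out 64 control probesets, 16938 of the others (37.6%) reached 100 in at least 2 arrays and were tested with limma 3.58.1 under R 4.3.3 (moderated test, lmFit then eBayes, no covariate, two-sided, Benjamini-Hochberg, threshold 0.05). Means are geometric. The procedure was tested on simulated data.

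Platform annotation gave 1 symbol to 34958 probesets, several to 932 and none to 9211. A listed gene was read at its brightest tested probeset. The members and the 16 gene lists were chosen with earlier results of these data known. The text names every member probeset, up to 4 tested genes with the largest difference in each pathway list, the 5 genes closest to Npy, and a few further list members chosen after their values were seen. Alternatives were other filters, normalizations, log2 after a floor of 100 or with a pseudocount of 32, each array left out, a replicate block, eBayes options, leaving out probesets that may match several transcripts, the submitters' 2-fold rule and, added after seeing the data, centring on spike-ins and ranking likeness to Npy over genes at 100 on all 4 arrays.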

Additional observations from a re-analysis of the deposited data

How the results depend on the processing

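Npy kept its direction under all 16 alternatives, with log2 fold changes from 1.85 to 2.33. Npy stayed at 2.22 under the filters, floor, block, eBayes options, probeset exclusion and 2-fold rule. These cannot move the estimates of Npy or of the tested receptor probesets, so only the other alternatives bear on direction. Npy depended on them as follows. Its call, like those of all probesets, was lost with no intensity filter (log2 2.22) and without any 1 array (2.11 to 2.33). The 4 receptor probesets stayed lower under all 16, and 0 of them passed except with spike-in centring, where all 4 did. That centring moves every probeset of an array together, and its p-values take this shared shift as a difference. It called 10397 probesets, 2 prohormone processing, 19 Gi/o, 8 other neuropeptide, 7 activity response and 14 interneuron genes.

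Over all probesets 0 were called with no filter, 163 with 100 in at least 1 array, 532 with eBayes trend and robust options, 193 without probesets that may match several transcripts and 134 by the submitters' 2-fold rule, which Npy alone of the members met. The count was 0 to 0 across the fits that leave out 1 array. Trend and robust options called 2 Gi/o genes. Other neuropeptides had 2 calls by the 2-fold rule. With no filter, or without 1 array, they and the activity response genes lost their calls along with all probesets.

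Pool numbers are shared between groups by number only, and the labels state no pairing. Deviations of same-numbered pools correlated at r = 0.14 over 16938 probesets. With the pool number as a replicate block, Npy stayed called (adjusted p = 0.0464) and the whole table gave 9 calls, with 1 among other neuropeptides and 0 among activity response genes. The block left 1 astrocyte, 1 striatal and 0 dentate, microglia and endothelial calls. The small number of arrays and the low signal of 1 Npy1r probeset limit what can be read of the receptors.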
